A study of Mus musculus with 3 samples.

Results

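Solute carriers are membrane proteins that move sugars, amino acids, ions, metals, vitamins, nucleosides and organic acids across the cell surface or an internal membrane. Each gene symbol gives its family number after Slc, and a family groups carriers of related sequence, often with related substrates. The members described here were all probes whose platform annotation gave 1 gene symbol of that form, without the mitochondrial Slc25 family and without Slc4a1, Slc10a1, Slc27a2, Slc27a5, Slc2a2 and Slc37a4. This took 211 of the 13738 probes with 1 symbol, for 149 genes in 45 families. The symbol pattern also took 4 genes that encode no carrier: the adaptor gene Slc4a1ap, the scaffold gene Slc9a3r2, the opposite-strand transcript Slc6a19os and the pseudogene Slc39a1-ps. The members do not all act at the cell surface. Families such as Slc35, which carries nucleotide sugars into the Golgi, and Slc18 and Slc32, which fill synaptic vesicles, sit on internal membranes.

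Each of 3 two-colour oligonucleotide arrays compared a mouse spleen total RNA in the green dye Cyanine-3 with a mouse liver total RNA in the red dye Cyanine-5. Both RNAs were commercial products, the same catalogue item on every array, amplified once into labelled cRNA, and the labels give no strain, sex, age or number of animals. Whether the arrays share 1 lot of each RNA, or 1 amplification of it, is not stated. Every SD and p-value given measures only how far these arrays differ, and that spread may be technical. Liver carried the red dye on every array, so tissue and dye cannot be told apart for any carrier.

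Values are log2 ratios of the 2 channels. The direction is not stated in the labels and was taken as liver over spleen, because markers of hepatocytes had medians of 4.67, 4.62 and 4.30 on arrays 1, 2 and 3 and markers of spleen had medians of -1.93, -1.79 and -1.77. The hepatocyte medians rested on 2, 3 and 2 genes, since the table lists an exact 0, taken as no measurement, for the other probes. Liver is mostly hepatocytes, and spleen is a mix of lymphocytes, macrophages, red cell precursors and stroma. In such bulk RNA, fewer cells of a type and less RNA per cell cannot be told apart. Channel intensities were not used here, so a ratio near 0 does not tell equal levels from the lack of signal in both RNAs.

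Of the 149 genes, 140 had at least 1 probe measured on all 3 arrays and were tested, 96 of them through 1 probe, 38 through 2 and 6 through 3, averaged per array. Another 8 had values on some arrays only and Slc8a3 had none. Limma's test of the mean log2 ratio against 0, adjusted by Benjamini-Hochberg over all 9803 genes of the array, passed 62 carriers at an adjusted p under 0.05. That is 44.3% of the 140, against 52.8% of all genes tested. Toward liver 32 members passed, 22.9% against 25.3% of all genes, and toward spleen 30 passed, 21.4% against 27.4%. All 62 had the same sign on every array. With 1 array left out, which also leaves less information on the spread, the count toward liver was 20 without array 1, 22 without array 2 and 31 without array 3. Tested against a 1.2-fold limit instead of against 0, 16 passed toward liver and 19 toward spleen.

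Of the 62 calls, 43 held whichever array was left out. The other 19 were lost in at least 1 of these fits: Slc1a3, Slc2a3, Slc2a5, Slc2a9, Slc4a2, Slc4a4, Slc5a4b, Slc7a2, Slc10a2, Slc10a6, Slc13a2, Slc16a8, Slc17a1, Slc19a1, Slc30a5, Slc30a6, Slc37a3, Slc38a1 and Slc43a1. None of these had a mean more than 0.64 from 0. The calls of Slc4a2, Slc4a4, Slc16a8, Slc19a1, Slc30a5 and Slc30a6 were lost in all 3 fits. Another 10 members did not pass on all 3 arrays but passed with an array left out: Slc2a1, Slc2a8, Slc5a1, Slc7a9, Slc12a9, Slc22a12, Slc22a17, Slc23a2, Slc30a1 and Slc39a11.

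The mean log2 ratio lay within 0.5 of 0 for 98 of the 140 members, 70% against 64.2% of all genes, and for 22 of the 62 past the test. The members' median was 0.10, against 0.02 over all genes. At 2-fold or more, 10 members were higher in liver, 7.14% against 9.21% of all genes, and 7 were higher in spleen, 5% against 8.4%. In either direction these 17 members made up 12.1%, against 17.6% of all genes. At 4-fold or more there were 3 members toward liver, where 4.26% of all genes lay, and 0 toward spleen, where 1.45% lay. The members' shares at 2-fold or more stood below those of all genes toward each tissue, while their share within 0.5 of 0 stood above. No test of these differences was made. The 6 carriers left out by name are not in these counts. The lowest array value of Slc2a2, Slc27a2, Slc27a5 and Slc37a4 was 2.71, beyond 4-fold toward liver. Slc4a1 had a probe at -3.16, -2.64 and -3.02 and another at -0.34, -0.09 and -0.69. Slc10a1 had a probe at 4.77 and 4.19 on arrays 1 and 3 and another at -0.50, -0.24 and -0.33. Counting these carriers would raise the members' shares at 2-fold or more toward liver, and through Slc4a1 could raise them toward spleen, by amounts not computed. The lower shares at 2-fold or more thus hold only for the members as the rule chose them, and not for solute carriers at large.

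**Figure D1:**
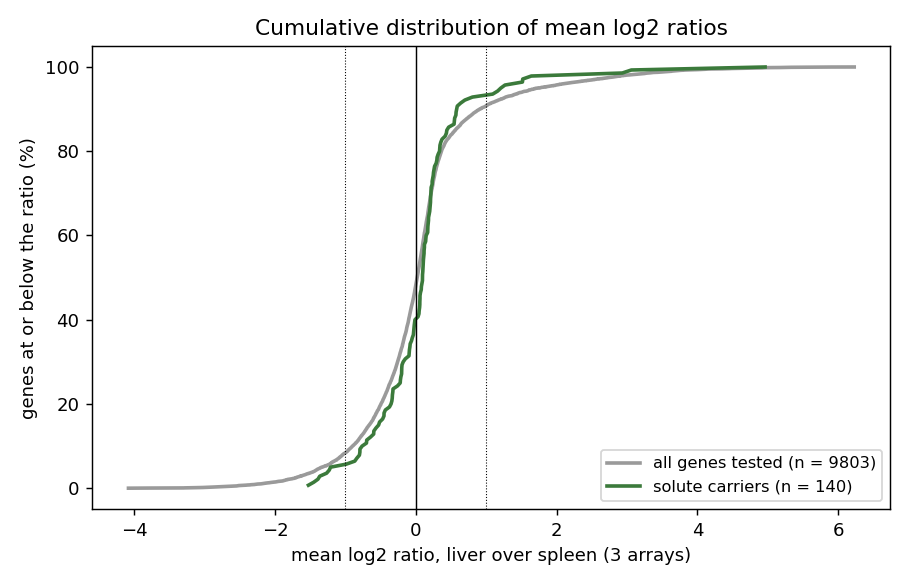
Cumulative share of genes (%) against the mean log2 ratio of liver over spleen, for the 140 solute carrier genes and for all 9803 genes tested. The carriers, which are part of all genes, run from -1.52 to 4.96, and dotted lines mark 2-fold.

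By mean ratio, amino acid carriers held the strongest member in each direction. Slc38a4, a sodium-coupled carrier of small neutral amino acids known from hepatocytes, read 5.05, 5.05 and 4.78 on arrays 1, 2 and 3. Every array put it far above the other members tested. Its mean of 4.96 ± 0.15 (SD, n = 3) is a 31.1-fold higher level in liver (limma, adjusted p = 1.06e-05). At the other end stood Slc1a5, an exchanger that supplies glutamine to dividing cells. It read -1.34, -2.08 and -1.15, a mean of -1.52 ± 0.50 and a 2.87-fold higher level in spleen (limma, adjusted p = 0.00148). Its value on array 2 lay well below the other two. On arrays 1 and 3 it was not the lowest member, as Slc14a1 read -1.71 on array 1 and Slc2a4 -1.40 on array 3. The rank of Slc1a5 thus rests on array 2.

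The Slc19 and Slc16 families gave the other members beyond 4-fold. Slc16a7, a carrier of pyruvate and lactate with high affinity, read 2.97, 3.61 and 2.60, or 3.06 ± 0.51 and 8.35-fold toward liver. Slc19a2, the thiamine carrier, read 2.98, 3.17 and 2.66, or 2.93 ± 0.26 and 7.64-fold. Their adjusted p-values (limma) were 0.000118 and 2.71e-05. Both had their smallest value on array 3, and they are among 10 of the 17 members at 2-fold or more with the smallest difference there. That array had the narrowest range of ratios, with an SD of 0.737 over the 140 members against 0.803 and 0.852 on arrays 1 and 2.

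**Figure D2:**
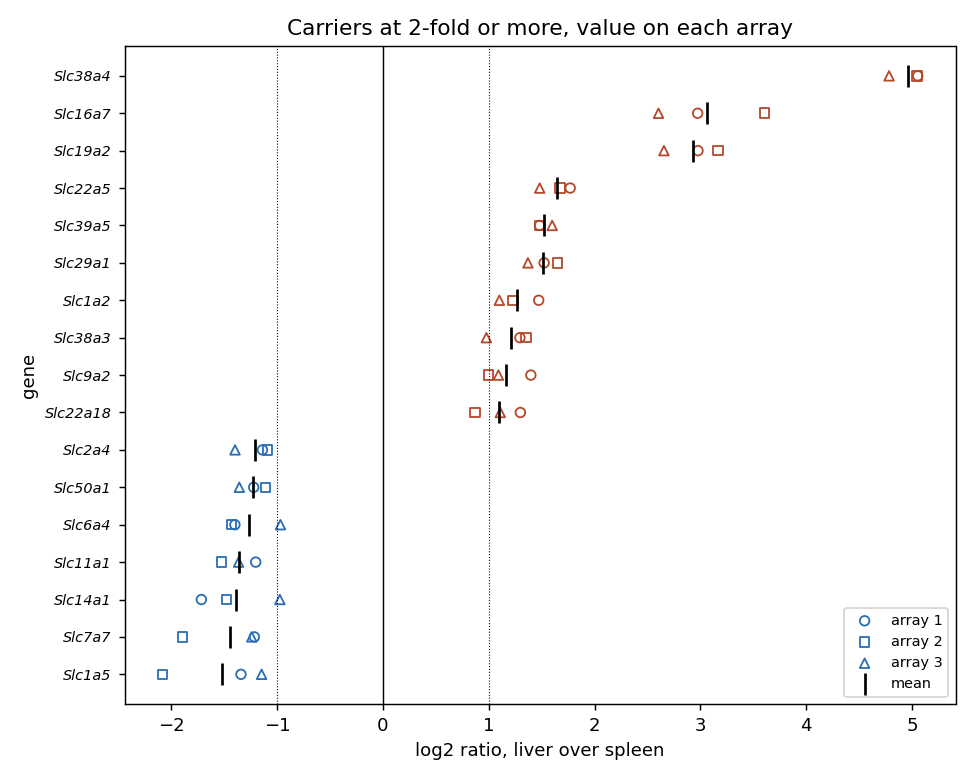
Log2 ratio of liver over spleen on each of the 3 arrays for the 17 carriers past the test at 2-fold or more, with a bar at the mean; dotted lines mark 2-fold. Slc38a4, Slc16a7 and Slc19a2 stand apart at means of 4.96, 3.06 and 2.93, and no spleen-side mean is below -1.52.

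The bases upstream of the transcription start are shown for the 3 members highest in liver and the 3 highest in spleen among those at 2-fold with an entry in RefSeq's promoter table for GRCm38.p6. They let these members be compared in sequence. Slc16a7, Slc1a5 and Slc14a1, with mean log2 ratios of 3.06, -1.52 and -1.39, were without such an entry and are not shown. Each run is the 250 bases before the most upstream listed start, 5′ to 3′ on the gene's strand. Capitals mark matches on either strand to any of 7 short motifs. The general promoter elements searched were TATAAA as TATA box, CCAAT as the box of that name and GGGCGG as GC box. The factor cores searched were GTTAAT for HNF1 and, for HNF4, CAAAGTCC. For blood cell factors they were GAGGAA for PU.1 and, for GATA factors, AGATAA. No 2 matches overlap in these runs.
Slc38a4: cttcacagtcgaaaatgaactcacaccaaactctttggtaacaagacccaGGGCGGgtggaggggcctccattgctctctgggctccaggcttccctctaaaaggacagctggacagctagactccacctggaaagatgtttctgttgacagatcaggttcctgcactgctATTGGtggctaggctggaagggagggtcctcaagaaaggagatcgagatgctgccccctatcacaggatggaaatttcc
Slc19a2: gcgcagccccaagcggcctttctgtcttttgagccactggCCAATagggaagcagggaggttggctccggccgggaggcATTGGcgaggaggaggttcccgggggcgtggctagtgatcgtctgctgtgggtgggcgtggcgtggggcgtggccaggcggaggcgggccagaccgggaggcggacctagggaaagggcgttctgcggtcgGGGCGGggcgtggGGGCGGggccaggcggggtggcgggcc
Slc22a5: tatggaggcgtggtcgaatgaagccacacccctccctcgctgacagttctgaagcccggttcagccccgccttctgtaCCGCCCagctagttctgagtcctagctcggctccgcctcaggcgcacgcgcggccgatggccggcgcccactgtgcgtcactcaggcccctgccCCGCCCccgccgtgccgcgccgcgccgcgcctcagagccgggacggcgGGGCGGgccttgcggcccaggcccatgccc
Slc7a7: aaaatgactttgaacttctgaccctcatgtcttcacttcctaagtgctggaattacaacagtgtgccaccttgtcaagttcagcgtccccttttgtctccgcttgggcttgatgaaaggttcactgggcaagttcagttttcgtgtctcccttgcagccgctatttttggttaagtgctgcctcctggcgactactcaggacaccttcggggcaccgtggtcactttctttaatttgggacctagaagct
Slc11a1: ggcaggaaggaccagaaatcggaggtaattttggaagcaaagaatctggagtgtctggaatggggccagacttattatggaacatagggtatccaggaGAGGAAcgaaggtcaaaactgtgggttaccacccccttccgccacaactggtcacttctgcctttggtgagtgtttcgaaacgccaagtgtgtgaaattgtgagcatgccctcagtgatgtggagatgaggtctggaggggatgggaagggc
Slc6a4: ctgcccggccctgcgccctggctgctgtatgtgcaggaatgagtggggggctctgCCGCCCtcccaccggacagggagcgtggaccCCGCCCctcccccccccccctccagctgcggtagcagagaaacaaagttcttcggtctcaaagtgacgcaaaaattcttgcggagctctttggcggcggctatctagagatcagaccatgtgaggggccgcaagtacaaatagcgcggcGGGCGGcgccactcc
The windows lie at chr15:97055957-97056206 on the minus strand for Slc38a4, chr1:164248796-164249045 on the plus strand for Slc19a2 and chr11:53891704-53891953 on the minus strand for Slc22a5. Those of the spleen-side genes lie at chr14:54417945-54418194 on the minus strand for Slc7a7, and on the plus strand at chr1:74374953-74375202 for Slc11a1 and chr11:76998347-76998596 for Slc6a4. Slc38a4 has 3 listed starts, Slc7a7 has 5, and each of the other four has 1.

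The liver-side genes did not share a promoter type. The windows of Slc19a2 and Slc22a5 held 23 and 30 CpG pairs, with 73.2% and 73.6% of bases G or C, while that of Slc38a4 held 3 CpG pairs at 52.8%. The ratio of observed to expected CpG had a median of 0.172 over the 7 matched members at 2-fold toward liver, ranging from 0 to 0.907. It was 0.569 over the 4 matched toward spleen, 0.581 over the 111 of 140 tested members with an entry, and 0.379 over the 27025 genes of the table. Among the 7 liver-side windows, the HNF1 core and the HNF4 core each matched in 0. Over all genes of the table they matched in 6.54% and 1.21%. The GC box GGGCGG matched in 3 of the 7 and in 1 of the 4 spleen-side windows, against 33% of all genes. The CCAAT box was in 2 and 0 of them (34.5% of all genes), the PU.1 core in 2 and 1 (23.1%), the GATA core in 1 and 0 (10.2%) and TATAAA in 0 and 0 (13%). These are letter matches in 1 window a gene and describe no binding.

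Carriers were grouped into substrate classes by family, so a class can hold a member with another substrate. Over all genes tested, 25.3% passed toward liver, 27.4% toward spleen and 52.8% in either direction. In either direction 43.75% of amino acid, 60% of organic acid and cation and 45.5% of vitamin and nucleoside carriers passed. For metals this was 29.4%, for sugars 50%, for ions and pH 48%, for other substrates 37.5% and for internal membranes 45.5%. No class was tested against all genes. Of 34 amino acid carriers, 32 were tested, 5 passed toward liver and 9 toward spleen, with a median of -0.04. Besides Slc38a4, the 2-fold members toward liver were Slc1a2 and Slc38a3. Slc1a2, a glutamate carrier best known from astrocytes and also present in liver, averaged 1.27 ± 0.19 (1.47, 1.23 and 1.10). Its 3 probes averaged 2.35, 0.73 and 0.73, all toward liver. Slc38a3, a glutamine carrier of the system N type, averaged 1.21 ± 0.20 (1.29, 1.35 and 0.98). That mean hides a split: a probe read 3.06, 2.84 and 2.88 and another -0.47, -0.14 and -0.92, although both are annotated to the same sequence record. The single value of Slc38a3 is thus the average of probes on opposite sides of 0.

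Toward spleen, Slc7a7 read -1.21, -1.89 and -1.24, or -1.45 ± 0.38 (limma, adjusted p = 0.000818). It is a light chain of the exchanger of cationic and neutral amino acids, and its partner is the heavy chain Slc3a2. Slc3a2 was also higher in spleen, at -0.47 ± 0.13, on both of its probes (-0.43 and -0.51). The light chains Slc7a5, Slc7a8, Slc7a9, Slc7a10 and Slc7a11 averaged between -0.21 and 0.14 and did not pass the test. The heavy chain Slc3a1, the partner of Slc7a9 in cystine uptake, averaged 0.08 and did not pass either. Among the cationic amino acid carriers, Slc7a2, known from liver, averaged 0.42 ± 0.33 and passed at an adjusted p (limma) of 0.0488, with array values of 0.32, 0.78 and 0.15. It did not pass without array 1 (limma, adjusted p = 0.0982) or without array 2, where its mean was 0.23 (adjusted p = 0.157). It also missed with arrays centred, zeros kept, probes on at least 2 arrays or the most extreme probe, at adjusted p from 0.0509 to 0.0998. Slc7a1 and Slc7a3 averaged -0.02 and -0.03.

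Slc6a4, the serotonin carrier of platelets and neurons, read -1.40, -1.43 and -0.97, or -1.27 ± 0.26. Its 2 probes averaged -1.40 and -1.13 and did not differ past the test (limma, adjusted p = 0.171). The broad amino acid carrier Slc6a14 averaged -0.79 ± 0.26 and the large neutral amino acid carrier Slc43a1 -0.33 ± 0.07. Slc43a3, placed in this class only by its family, averaged -0.64 ± 0.16. Slc38a1, a relative of Slc38a4 that supplies glutamine, stood on the spleen side at -0.43 ± 0.19. The Slc38 family thus had members past the test on both sides, as did 14 of the 30 families with 2 or more tested members. The remaining members of Slc6, the carriers of noradrenaline (Slc6a2), dopamine (Slc6a3), taurine (Slc6a6) and others, lay between -0.20 and 0.44, and of these Slc6a9, the glycine carrier, passed at 0.44 ± 0.04, from probes at 0.93 and -0.06 that differed past the test.

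**Figure D3:**
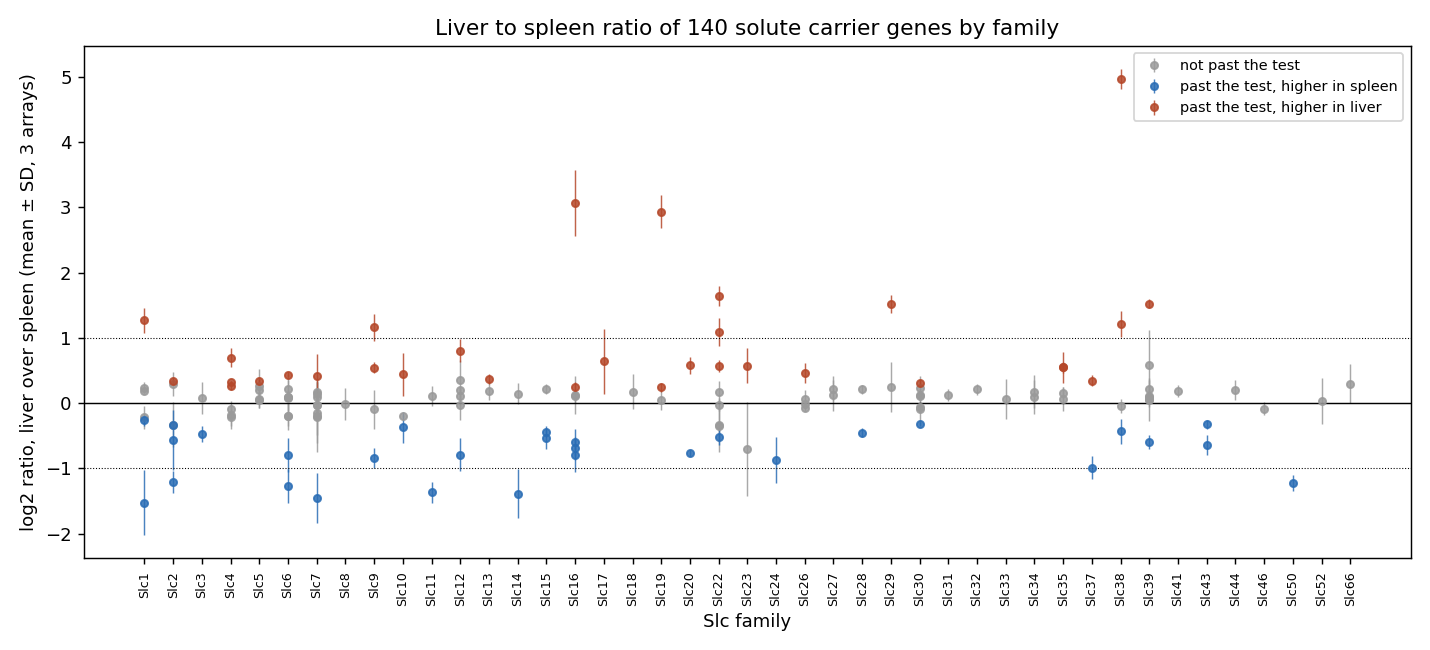
Mean log2 ratio of liver over spleen for each of the 140 tested members, with bars of ± 1 SD over the 3 arrays, grouped by Slc family number and coloured by limma's test; dotted lines mark 2-fold. Members past the test lie on both sides of 0 in 14 families, among them Slc16, where 1 member is at 3.06 and 3 are between -0.80 and -0.59.

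Organic acid and cation carriers split within families. Of 22, 20 were tested, 7 passed toward liver and 5 toward spleen, with a median of 0.12. In the Slc16 family, whose best known members carry lactate and pyruvate with protons, Slc16a7 was alone at 2-fold. Slc16a1, the widely expressed carrier, read -0.67, -0.53 and -0.89, or -0.70 ± 0.18. Slc16a3, which exports lactate from glycolytic cells, read -0.69, -1.09 and -0.63, or -0.80 ± 0.25, and Slc16a9 averaged -0.59 ± 0.20. All 3 were higher in spleen on every array. Bsg, the chaperone chain that brings Slc16a1 and Slc16a3 to the membrane, averaged 0.45 ± 0.10, toward liver. Emb, another accessory chain of carriers, had no value on array 2 and was not tested. It read -0.69 and -0.68 on arrays 1 and 3, on the spleen side. Slc16a8 passed at 0.25 ± 0.07, while Slc16a10 and Slc16a11 averaged 0.11 and 0.12 and did not pass.

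In the Slc22 family, Slc22a5, which takes up carnitine for fatty acid oxidation, read 1.77, 1.67 and 1.48, or 1.64 ± 0.15 and 3.12-fold toward liver (limma, adjusted p = 7.10e-05). Its close relative Slc22a4, a carrier of ergothioneine, went the other way at -0.51 ± 0.13 (-0.66, -0.40 and -0.48). Each of the 2 genes kept its sign on every array, as did all members past the test. Slc22a21, another near relative, averaged 0.17 and did not pass. Signal shared between probes of such similar genes was not resolved here. Slc22a18, an organic cation carrier relative, read 1.30, 0.87 and 1.11, or 1.09 ± 0.21, from probes at 1.75 and 0.44. Slc22a6, an organic anion carrier of kidney, passed at 0.57 ± 0.09, from probes at 1.02 and 0.12. Slc22a2, Slc22a12 and Slc22a17 averaged -0.03, -0.34 and -0.35 and did not pass.

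Slc47a1, which extrudes organic cations into bile and urine, had no value on array 2. On arrays 1 and 3 it read 3.45 and 2.68, in the range of Slc16a7 and Slc19a2. It was left out of the test. Slc10a2, the bile acid carrier of ileum and bile ducts, averaged 0.44 ± 0.33 (0.26, 0.83 and 0.23) and Slc10a6 -0.37 ± 0.24, each past the test. Neither passed without array 1 or array 2, nor with zeros kept. Without array 2 their means were 0.25 and -0.24 (limma, adjusted p = 0.118 and 0.139). The sulfate carrier Slc13a1 averaged 0.19 on the probes measured on all arrays, while a probe without a value on array 2 read 2.64 and 0.94 on arrays 1 and 3.

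Vitamin and nucleoside carriers included 2 members at 2-fold, both toward liver. Of 12, 11 were tested, 4 passed toward liver and 1 toward spleen, with a median of 0.21. The thiamine carrier Slc19a2 stood apart from its family, as the folate carrier Slc19a1 passed at 0.24 ± 0.07 and the other thiamine carrier Slc19a3 was at 0.05 ± 0.15 (limma, adjusted p = 0.693). Slc29a1, the equilibrative carrier of adenosine and other nucleosides, read 1.52, 1.65 and 1.37, or 1.52 ± 0.14 and 2.86-fold. Slc28a2, a sodium-coupled nucleoside carrier, averaged -0.45 ± 0.07 toward spleen, from probes at -0.93 and 0.02. Of the ascorbate carriers, Slc23a1, known from liver and kidney, averaged 0.57 ± 0.27 toward liver. Slc23a2, the form of most other tissues, read 0.12, -1.0 and -1.22 and did not pass (limma, adjusted p = 0.0719). Without array 1 its mean was -1.11 and it passed (limma, adjusted p = 0.00196).

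Of 18 metal carriers, 17 were tested, 2 passed toward liver and 3 toward spleen, with a median of 0.11. Slc11a1 pumps divalent metals out of the phagosomes of macrophages. It read -1.20, -1.52 and -1.36, or -1.36 ± 0.16 and 2.57-fold toward spleen (limma, adjusted p = 0.000152). The iron carrier of other cells, Slc11a2, averaged 0.11 ± 0.16 and did not pass. Slc40a1, the only known iron exporter, had no value on array 2 and read -1.31 and -1.32 on arrays 1 and 3, on the spleen side.

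Slc39a5 was the zinc carrier farthest from 0. This importer read 1.48, 1.48 and 1.60, or 1.52 ± 0.07, as the average of a probe at 2.67 and a probe at 0.36. Slc39a3, another importer, was higher in spleen at -0.60 ± 0.11. Slc39a7, Slc39a8, Slc39a9 and Slc39a13 averaged between 0.06 and 0.21 and did not pass. Slc39a11 read 0.45, 1.18 and 0.14 and did not pass (limma, adjusted p = 0.0557). Among the zinc exporters, Slc30a5 was at -0.32 ± 0.03 and Slc30a6 at 0.30 ± 0.05, calls that no fit on 2 arrays kept. Slc30a1, the exporter of the cell surface, averaged 0.23 ± 0.19 and did not pass, from a probe at 1.04, 1.06 and 1.15 and a probe at -0.53, -0.23 and -1.07.

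Of 13 sugar carriers, 12 were tested, 2 passed toward liver and 4 toward spleen, with a median of 0.05. The 2 members at 2-fold were both higher in spleen. Slc2a2, left out of the members by name, read 2.89, 3.02 and 2.71 toward liver. Slc50a1, a sugar efflux carrier, read -1.22, -1.11 and -1.36, or -1.23 ± 0.12. Slc2a4, the insulin-responsive glucose carrier of muscle and fat, read -1.14, -1.09 and -1.40, or -1.21 ± 0.16. Their adjusted p-values (limma) were 0.000163 and 0.000240, and every array placed both beyond 2-fold. The glucose carrier Slc2a3 averaged -0.57 ± 0.46, with array 2 at -0.04. The urate carrier Slc2a9 was at -0.33 ± 0.03. Slc2a1, a glucose carrier of many cell types, read 0.04, -0.40 and -0.64 and did not pass (limma, adjusted p = 0.0991). Without array 1 its mean was -0.52 and it passed (limma, adjusted p = 0.0232). The fructose carrier Slc2a5 passed at 0.34 ± 0.05.

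Ion and pH carriers gave 12 members past the test of 25 tested, 8 toward liver and 4 toward spleen, and 1 at 2-fold, with a median of 0.10. That member was the sodium/proton exchanger Slc9a2, which read 1.40, 1.00 and 1.09, or 1.16 ± 0.21. Its relative Slc9a3, the exchanger of kidney and gut, averaged -0.84 ± 0.15 (-1.0, -0.80 and -0.70), and Slc9a4 0.54 ± 0.09 on the liver side. The sodium-coupled phosphate carriers Slc20a1 and Slc20a2 also took opposite sides, at -0.76 ± 0.05 and 0.58 ± 0.13. Slc12a2, which brings sodium, potassium and chloride into cells, averaged -0.79 ± 0.25, while Slc12a7, which lets potassium and chloride out, averaged 0.80 ± 0.18. Within both pairs each gene kept its sign on every array. The calcium exchanger Slc24a3 averaged -0.87 ± 0.35. The anion exchanger Slc4a3 passed at 0.70 ± 0.14, but only 1 of its 3 probes was far from 0, at 2.00 against 0.18 and -0.09.

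Among carriers of other substrates, Slc14a1, the urea carrier of red cells, read -1.71, -1.48 and -0.97. Its mean of -1.39 ± 0.38 is a 2.62-fold higher level in spleen (limma, adjusted p = 0.000922). The peptide carriers Slc15a3, found on lysosomes of immune cells, and Slc15a2 averaged -0.45 ± 0.07 and -0.53 ± 0.18. The probes of Slc15a2, at -0.05 and -1.01, differed past the test. Slc27a1, Slc27a3 and Slc27a4, the fatty acid transport proteins kept by the rule, held no member past the test, and Slc27a4, without a value on array 1, was not tested. Of 11 members of internal membranes, 4 passed toward liver, 1 toward spleen and none reached 2-fold. Slc37a2, a sugar phosphate exchanger, came nearest at -0.99 ± 0.17 (-0.79, -1.09 and -1.08). The nucleotide sugar carriers Slc35a1 and Slc35a5 were both at 0.55 toward liver, with SDs of 0.24 and 0.08, and Slc17a1, grouped here by its family although it carries phosphate and urate at the cell surface, at 0.64 ± 0.50. The value of Slc17a1 on array 3 was 0.06. The 4 genes that encode no carrier averaged between -0.22 and 0.10 and did not pass.

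Whether a member's value holds across its probes could be asked for 38 genes with 2 probes. Limma's test of the difference between the probes, over all 2052 such genes of the array, passed 17 of the 38, or 44.7%, against 35.8% of all 2-probe genes. Without array 3, 11 passed. By 2-fold or more, 6 of the 38 differed, 15.8% against 13.8%. These were Slc38a3, Slc39a5, Slc30a1, Slc22a18, Slc6a12 and Slc14a2, with differences between the probes of 3.43, 2.31, 1.69, 1.31, 1.22 and 1.12. In 4 of the 6 a probe lay within 0.5 of 0. The other 11, Slc1a6, Slc2a8, Slc4a8, Slc4a10, Slc6a9, Slc15a2, Slc22a6, Slc26a3, Slc28a2, Slc33a1 and Slc38a10, differed by 0.59 to 0.99. In 13 of the 17, or 76.5%, the probes lay on opposite sides of 0, against 53.3% of all differing pairs. For 8 of the 38 both probes carry the same sequence record, and 3 of these 8 differed (37.5% against 35.8% of all such pairs): Slc38a3, Slc6a12 and Slc4a10. The cause was not tested, and which probe is right cannot be told from these data.

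**Figure D4:**
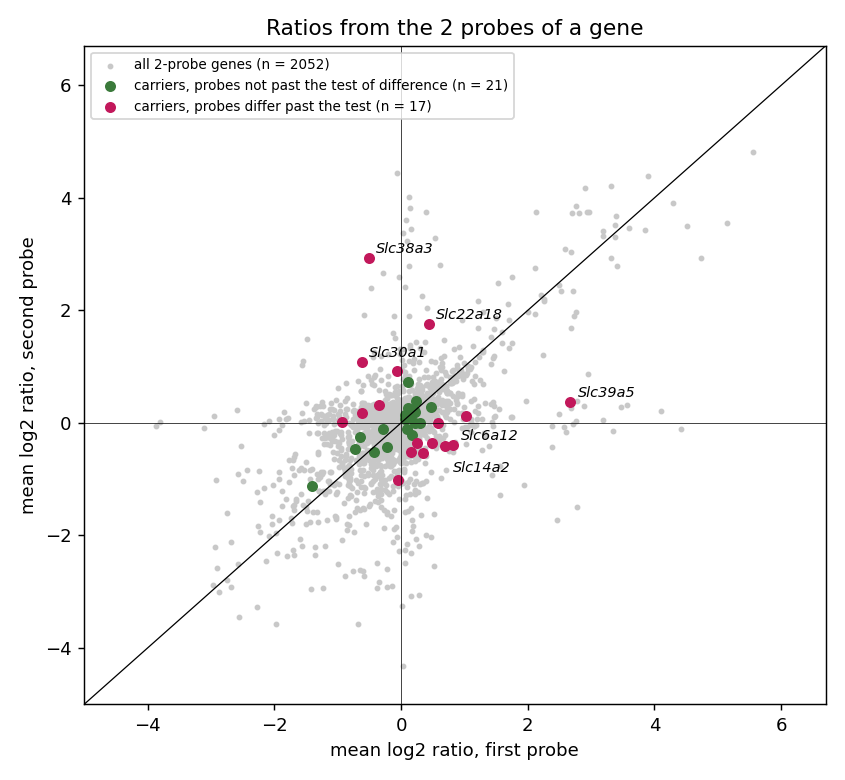
Mean log2 ratio of the second probe against that of the first for genes with 2 probes measured on all arrays; grey points are all 2052 such genes, coloured points the 38 carriers, and the line marks equality. Of the 283 genes whose probes differ past the test by 2-fold or more, 221 have a probe within 0.5 of 0, as do 4 of the 6 such carriers, which are named.

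Markers of the cells that each RNA could hold were read beside these values. Over all genes tested, 25.3% passed toward liver and 27.4% toward spleen. Of 4 macrophage markers, 4 passed toward spleen, between -2.05 and -0.34. The 3 erythroid markers measured, Klf1, Epor and Hemgn, passed toward spleen between -3.04 and -1.14, and so did 3 of 4 T cell and 2 of 3 B cell markers. The adipose marker Adipoq, of interest beside Slc2a4, averaged -0.83 ± 0.16 toward spleen, while the other 2 adipose markers measured, Cidec and Retn, were toward liver at 0.50 and 0.56. Of 3 pancreas acinar markers, 2 passed toward spleen, and the 3 lay between -0.45 and 0.04. The 6 kidney tubule markers, which include the member Slc34a1, lay between -0.04 and 0.24, and 1 passed toward liver. Of the 32 carriers past the test toward liver, 13 averaged under 0.5, and 9 of the 30 toward spleen lay within 0.5 of 0. The part of any cell type in the values of Slc11a1, Slc14a1, Slc7a7, Slc2a4 or the other carriers was not tested.

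Genes that work with the carriers also lay on both sides. Over all genes tested, 25.3% passed toward liver, 27.4% toward spleen and 52.8% in either direction. The lists had 62.5% (Slco), 53.8% (sodium pump), 91.7% (iron), 66.7% (zinc and copper), 66.7% (accessory) and 50% (nucleoside salvage) in either direction. They were not tested against the shares of all genes. Of 8 tested organic anion carriers of the separately named Slco group, 4 passed toward liver, led by Slco1b2 and by Slco1a4 at 3.47 ± 0.30, and 1 toward spleen, Slco3a1 at -0.92 ± 0.11. Slco1b2 read 6.27, 6.64 and 5.76. Its value on array 2 is the highest the table holds, the log2 of 100, so its mean of 6.23 is a lower bound. Of 13 genes of the sodium pump, whose gradient drives many carriers, of related pumps and of the FXYD regulators, 4 passed toward liver and 3 toward spleen. Toward liver the regulator Fxyd1 averaged 1.32 ± 0.15 and the pump chain Atp12a 0.75 ± 0.13. Toward spleen the pump chain Atp1b3 averaged -1.90 ± 0.15 and the regulator Fxyd5 -1.87 ± 0.25.

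Among 12 genes of iron handling, 8 passed toward liver and 3 toward spleen. The plasma iron protein transferrin (Trf) averaged 3.90 ± 0.20 and the ferroxidase ceruloplasmin (Cp) 3.00 ± 0.19. The heme oxygenase Hmox1 averaged -1.44 ± 0.05, on the side of Slc11a1 and Slc40a1, and the hepcidin regulator Hjv -0.55 ± 0.24. Of 9 genes of zinc and copper buffering, 5 passed toward liver and 1, the copper pump Atp7a at -0.64 ± 0.24, toward spleen. The metallothionein Mt2 averaged 2.87 ± 0.17 and the copper chaperone Ccs 2.70 ± 0.15, larger ratios than the mean of any zinc carrier tested. A list of accessory chains and scaffolds, which also held the ammonium carriers Rhag, Rhbg and Rhcg, had 9 tested genes. In it 4 passed toward liver, Rhbg at 2.57 ± 0.06, Pdzk1 at 2.21 ± 0.26, Rhag at 1.66 ± 0.26 and Bsg at 0.45 ± 0.10. Pdzk1 is a scaffold that holds several carriers at the membrane. Another 2 passed toward spleen, the membrane linker ezrin (Ezr) at -3.16 ± 0.19 and Nptn, a relative of Bsg, at -0.37 ± 0.03. Of 10 nucleoside salvage enzymes, 3 passed toward liver and 2 toward spleen, and none reached 2-fold. Pnp and Uck1 averaged 0.91 ± 0.06 and 0.34 ± 0.08, and Tk2 and Ada -0.66 ± 0.04 and -0.34 ± 0.13.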

How the data were processed

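Per the labels, each of 3 two-colour arrays compared a spleen RNA with a liver RNA, purchased under the same catalogue numbers. The deposited table holds log2 ratios for 16281 probes; how the authors corrected background, normalized dyes or filtered spots, and the log base, is not given in the sources used here. The base was taken from the highest value of each column, 6.64, the log2 of 100. Probes were named from the platform annotation (13738 with 1 symbol, 52 with several, 2491 with none), and all 149 member genes were found by Entrez number in RefSeq's gene table. Exact zeros were taken as no measurement. Probes measured on all arrays were averaged per gene and array, then tested with limma 3.58.1 in R 4.3.3 across all 9803 genes (intercept only, two-sided, Benjamini-Hochberg). The difference between the probes of 2-probe genes was tested likewise. Both tests were tested on simulated data. The number of arrays limits the precision.

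The members and lists were chosen with earlier results of these data known, and the promoter motifs after their values were seen. Every member could be named. By the rule for named genes, array values were to be given for members at 2-fold or more, the extremes of families and members whose probes differ; of the last kinds only some are given by array and the rest by their means. From other lists the largest members past the test are named. Bsg, Emb, Rhag, the carriers left out by name whose values are given, and the array values of some further members were chosen after their values were seen. Alternatives were each array left out, centred or scaled arrays, probes on at least 2 arrays, zeros kept, the most extreme probe, single-probe genes, and a 1.2-fold test limit.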

Additional observations from a re-analysis of the deposited data

How the results depend on the processing

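All 17 members at 2-fold or more kept their direction and stayed past limma's test in every alternative fit that held them, with arrays left out, centred or scaled, with zeros kept, with probes on at least 2 arrays or with the most extreme probe. The fit on single-probe genes held 12 of them, and the 1.2-fold limit was run for counts only. The 2-fold size itself was not kept by all: without array 1 the mean of Slc22a18 was 0.99. In that fit 9 members toward liver, instead of 10, were at 2-fold or more. Smaller differences depended more on the arrays. The count of members past the test toward liver, 32 with all arrays, ranged from 20 to 31 with an array left out; it was 20 without array 1, all of them among the 32. The count toward spleen ranged from 25 to 29. Against a 1.2-fold limit, 16 members passed toward liver and 19 toward spleen. With single-probe genes only, which leaves 96 members, 20 passed toward liver and 6 of them at 2-fold, the fewer members being part of the cause. The 17 members whose probes differed became 11 to 16 with an array left out, and 11 without array 3. No called member changed sign. No paired analysis was possible because all arrays belong to 1 group. The number of arrays and the missing intensities limit what small ratios can show.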
